A study of Mus musculus with 12 samples.

Results

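The insulin-like growth factor (IGF) genes expressed by Pdgfra+ lung cells were examined as a set of 9 genes. They are the ligands Igf1 and Igf2, the receptor Igf1r and the binding protein genes Igfbp2, Igfbp3, Igfbp4, Igfbp5, Igfbp6 and Igfbp7. Members were chosen by gene symbol among the 40760 genes counted, each symbol matched 1 row, and all 9 passed the filter on low counts that left 17418 genes for testing. The lowest count of any member in any library was 25, for Igf2, and the highest was 16527, for Igfbp4.

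The cells were sorted by flow cytometry from the lungs of male mice for CD140a, the protein encoded by Pdgfra and carried by lung fibroblasts, and their RNA was sequenced in bulk. The 12 libraries formed 4 groups of 3. Wild-type (WT) and Pear1-/- mice had each received either vehicle or bleo, where bleo is bleomycin, a drug that injures the lung and induces fibrosis. The study's general methods give male C57BL/6 mice aged 8 to 12 weeks unless otherwise indicated, bleo at 1.5 or 2 µg/g by the airway and analysis of the model on day 21, but the labels give no age, dose or day for these libraries. The Pear1-/- line carries a knockout-first cassette between exons 6 and 7 of Pear1 in every cell, not only in fibroblasts, and the number of mice behind a library is not stated, so p-values measure the spread between libraries, which may in part be technical.

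IGF1 and IGF2 are small secreted hormones that bind the IGF1 receptor, a tyrosine kinase that signals through IRS proteins to AKT and mTOR and through GRB2 to the MAP kinases, and so promotes growth and survival of cells. In tissues most IGF is held by binding proteins, which keep it from the receptor or carry it, and which proteases cleave to set it free. IGFBP6 prefers IGF2, and IGFBP7 binds IGF only weakly. In the lung, fibroblasts and macrophages are both known sources of IGF1.

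Features of the libraries bear on the values below. Pear1 itself had 547 ± 28.8 normalized counts in WT vehicle (SD, n = 3) and 254 ± 14.0 in WT bleo, against 519.7 ± 24.0 in Pear1-/- vehicle and 357 ± 14.2 in Pear1-/- bleo, and its count did not follow the genotype label. The genotype is given throughout as labelled. WT vehicle replicate 2 stood apart from its group and lay nearer to Pear1-/- vehicle. Its chi-square per degree of freedom over genes, which is 1 for counting noise alone, was 21.2 and 21.8 against WT vehicle replicates 1 and 3 but between 1.73 and 2.67 against the libraries labelled Pear1-/- vehicle. The libraries labelled Pear1-/- vehicle differed among themselves by 1.44 between replicates 1 and 2 and by 4.31 and 4.82 from replicate 3. Within the bleo groups the libraries differed by 1.35 to 1.49, close to counting noise, so that p-values there rest on a small spread. Whether WT vehicle replicate 2 carries the right label was not tested, and the member values that it changed most are given with and without it, as are those of named pathway genes whose value in WT it moved across or close to 0. Pdgfra fell with bleo. Its mean went from 4565 ± 325 to 1360.1 ± 29.9 in WT, and under the Pear1-/- label it went from 4165 ± 39.1 to 2392 ± 18.8 normalized counts (SD, n = 3). The summed level of 14 leukocyte markers, all above 3 counts in every group, was 24548 to 36796 in WT vehicle and 134795 to 136134 in WT bleo, against 36190.2 to 39222 in Pear1-/- vehicle and 60819.8 to 62421 in Pear1-/- bleo. Ptprc, which encodes CD45, had 7616 ± 97.8 normalized counts in WT bleo and between 3303 and 3818 on average in the other groups. The summed level of 7 epithelial markers was 38262 to 61658 in the vehicle groups, 14597 to 14868 in WT bleo and 6408 to 6516 in Pear1-/- bleo. Of these 7 markers, 5 fell and 2 (Epcam and Cdh1) rose in WT, and 6 fell and 1 (Cdh1) rose under the Pear1-/- label. The sum over 6 endothelial markers was 3326 to 4226 in the vehicle groups and 1964 to 2168 in the bleo groups. Of these, 5 fell in WT and 6 under the Pear1-/- label. The sum over 6 pericyte and smooth muscle markers was 3120 to 3533 in the vehicle groups. It was 2360 to 2421 in WT bleo and 5916 to 6210 in Pear1-/- bleo. Of these, 2 rose and 2 fell in WT, and 3 rose and 2 fell under the Pear1-/- label. In bulk RNA, fewer cells of a type and less RNA per cell cannot be told apart, and the part of other cells in the values below was not tested.

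The promoters of 3 binding protein genes are shown because these genes had different responses. Igfbp2 rose with bleo, Igfbp3 fell and was higher in Pear1-/- bleo than in WT bleo, and Igfbp6 fell to nearly equal means in both bleo groups. Each sequence is the 250 bases before the RefSeq start in GRCm38.p6, 5′ to 3′ on the strand of the gene, in lower case, with the motifs found on either strand in capitals. The TATA box was searched as TATAAA, the GC box as GGGCGG and the AP-1 site as TGANTCA. The box named CCAAT was searched by those letters.

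Igfbp2 (chr1:72824230-72824479, plus strand): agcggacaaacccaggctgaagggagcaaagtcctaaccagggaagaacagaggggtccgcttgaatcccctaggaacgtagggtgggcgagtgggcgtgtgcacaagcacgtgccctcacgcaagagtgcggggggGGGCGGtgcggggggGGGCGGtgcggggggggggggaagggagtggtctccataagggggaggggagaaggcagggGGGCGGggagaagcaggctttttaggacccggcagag

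Igfbp3 (chr11:7213924-7214173, minus strand): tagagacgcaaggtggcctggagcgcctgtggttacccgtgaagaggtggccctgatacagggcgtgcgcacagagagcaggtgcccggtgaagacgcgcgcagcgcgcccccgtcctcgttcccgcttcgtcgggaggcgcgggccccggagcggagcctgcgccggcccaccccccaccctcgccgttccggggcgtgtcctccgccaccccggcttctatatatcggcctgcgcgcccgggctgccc

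Igfbp6 (chr15:102143936-102144185, plus strand): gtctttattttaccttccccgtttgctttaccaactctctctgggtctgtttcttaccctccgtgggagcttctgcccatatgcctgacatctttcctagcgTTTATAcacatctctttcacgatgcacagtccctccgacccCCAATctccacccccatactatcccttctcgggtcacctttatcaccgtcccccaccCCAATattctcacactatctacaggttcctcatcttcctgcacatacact

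The Igfbp2 window held 3 GC boxes, the Igfbp6 window held 1 TATA box and 2 CCAAT boxes, and the Igfbp3 window held none of the 4 motifs. RefSeq gives a second start for Igfbp2, whose window (chr1:72825137-72825386) overlaps an exon of the gene and is not shown. That window held 0 GC boxes and 1 AP-1 site, with a GC content of 56.4%. Of 32851 promoter windows of this length, 12.4% held a TATA box, 32.7% a GC box, 33.8% a CCAAT box and 6.75% an AP-1 site. The GC content was 67.2% for Igfbp2, 73.2% for Igfbp3 and 49.6% for Igfbp6, beside a median of 52.4% over all windows. These matches describe letters in the windows only.

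In GRCm38, Igfbp2 and Igfbp5 are neighbours on chromosome 1, Igfbp2 from 72824503 to 72852474 on the plus strand and Igfbp5 from 72857932 to 72874884 on the minus strand. Igf2 lies on chromosome 7 from 142650766 to 142666816 on the minus strand and Igf1r on the same chromosome from 67952827 to 68233668 on the plus strand. Igf1 lies on chromosome 10 from 87858265 to 87937042 and Igfbp6 on chromosome 15 from 102144362 to 102149511, both on the plus strand. Chromosome 11 holds Igfbp3 from 7206086 to 7213923 on the minus strand and Igfbp4 from 99041244 to 99054392 on the plus strand. Igfbp7 lies on chromosome 5 from 77349240 to 77408041 on the minus strand. Counts cover the exons of each gene as a whole. Of the Igf2 exon bases, 62.8% are shared with Gm49394 on the same strand, a gene that is not among those counted. Of the Igfbp7 exon bases, 7.03% are shared with Polr2b on the opposite strand, which had between 373 and 627 counts. The use of strand in counting is not given in the sources used here, so reads in these shared bases cannot be assigned to one gene with certainty.

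Levels can be compared between genes only per length, and normalized counts were divided for this purpose by the exon length of each gene in kb. On this scale Igfbp7 was the highest member in every group, at 8260.4 ± 390.3 in WT vehicle and 5722 ± 166 in WT bleo, against 8743 ± 721 in Pear1-/- vehicle and 7854 ± 68.7 in Pear1-/- bleo (SD, n = 3). Igfbp6 was the second in both vehicle groups and the third in both bleo groups, where Igfbp4 had passed it. Igf1 was the sixth in both vehicle groups, the fourth in WT bleo and the fifth in Pear1-/- bleo. Igf2 and Igf1r were the lowest members per kb in all groups. In WT vehicle these 2 did not differ beyond their spread, at 26.5 ± 9.07 for Igf2 and 24.6 ± 1.84 for Igf1r.

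**Figure D1:**
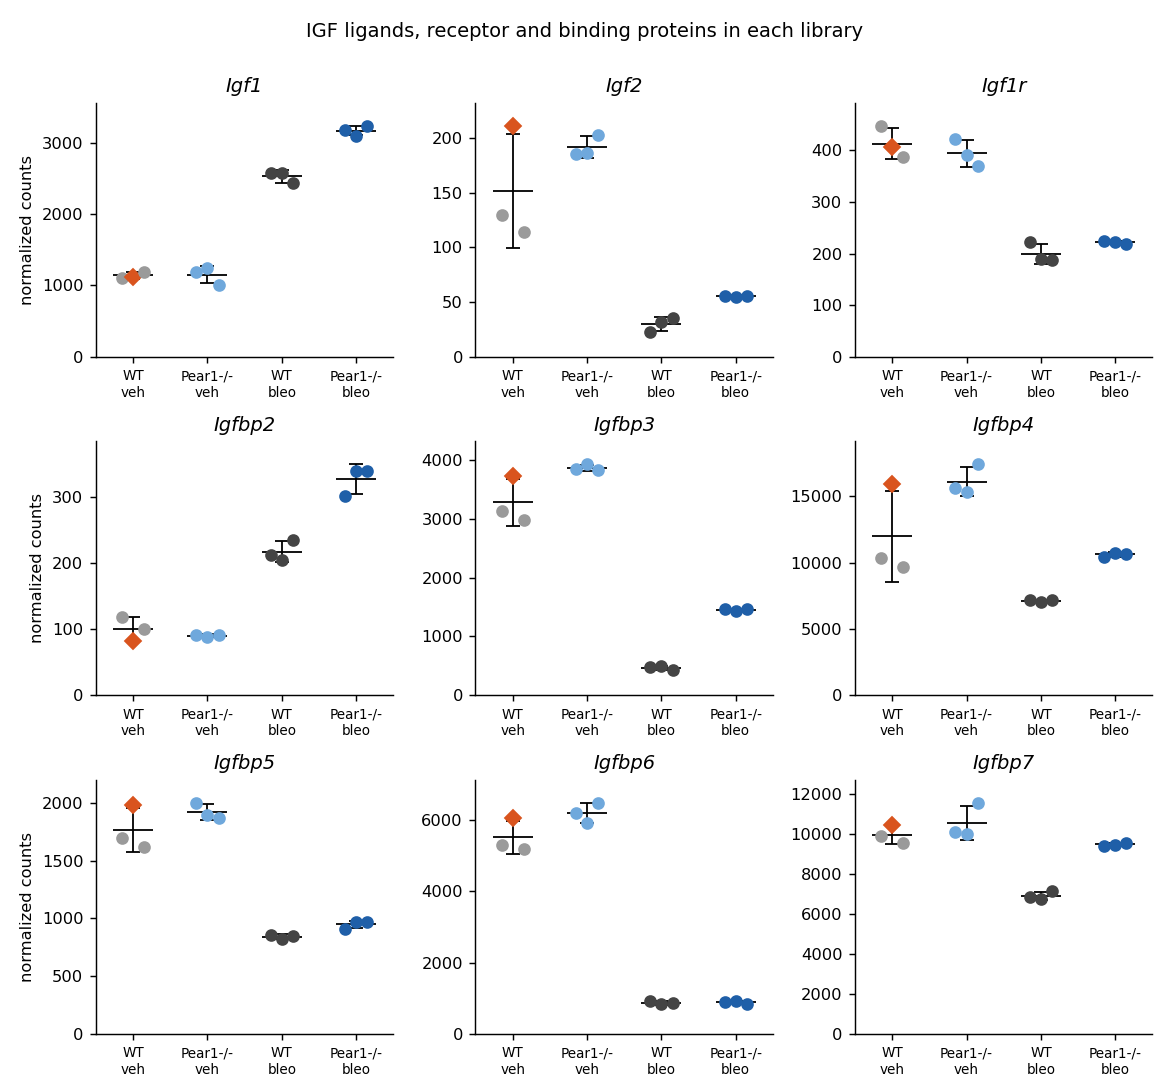
Normalized counts (y axis, starting at 0) of the 9 members in the 12 libraries, by group (x axis). Each point is 1 library, the horizontal line and bar are the mean ± SD of 3 libraries, and the orange diamond is WT vehicle replicate 2. Igf1 and Igfbp2 sit higher in the bleo groups and the other 7 sit lower in WT bleo than in WT vehicle.

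Bleo was compared with vehicle in WT to see which IGF genes differed after injury. All 9 members changed in WT, with 2 higher (Igf1 and Igfbp2) and 7 lower, where a call means that edgeR's quasi-likelihood test, two-sided, gave an adjusted p under 0.05. Among all tested genes 31.4% were called higher and 36.6% lower in this comparison, and the median log2 fold change was -1.03 for the members and -0.07 for all tested genes. Under the Pear1-/- label, 2 members were higher (again Igf1 and Igfbp2), 6 were lower and Igfbp7 was not called, with 28.9% of tested genes called higher and 33.4% lower. The median of the members was -0.83 there and that of all tested genes -0.05.

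Igf1, the main ligand, had 1104, 1124 and 1192 normalized counts in WT vehicle and 2575, 2582 and 2429.7 in WT bleo. Under the Pear1-/- label it had 1187, 1249.6 and 1013 in vehicle and 3181, 3099 and 3231 in bleo. Every bleo library lay above every vehicle library, and the libraries labelled Pear1-/- bleo all lay above WT bleo. The rise of Igf1 was 1.16 on the log2 scale in WT (standard error 0.079, edgeR adjusted p = 5.19e-09) and 1.47 under the Pear1-/- label (standard error 0.079, adjusted p = 5.69e-10). The leukocyte marker sum was also higher in both bleo groups than in the vehicle groups, and it was highest in WT bleo. The sum over 6 fibroblast markers was 115915 to 139351 in WT vehicle and 107066 to 108056 in WT bleo, against 139390 to 142422 in Pear1-/- vehicle and 284418 to 293828 in Pear1-/- bleo. Of these markers 2 rose and 4 fell in WT, and 3 rose and 3 fell under the Pear1-/- label. The part of either in the result was not tested.

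Igf2, the ligand of fetal growth that is mostly silenced after birth, moved the other way. It had 129.8, 211 and 114 normalized counts in WT vehicle and 23.0, 31.6 and 35.4 in WT bleo. The libraries labelled Pear1-/- had 186, 186 and 203 in vehicle and 55.9, 54.2 and 55.3 in bleo. The bleo and vehicle groups did not overlap, and WT vehicle replicate 2 was the highest of all 12 libraries. The fall of Igf2 was -2.34 on the log2 scale in WT (standard error 0.22, edgeR adjusted p = 2.71e-07) and -1.79 under the Pear1-/- label (standard error 0.20, adjusted p = 1.5e-06). Without WT vehicle replicate 2 the fall in WT was -1.95 (edgeR adjusted p = 6.7e-13). Per kb of exon, the level of Igf1 over that of Igf2 was 4.67 ± 1.48 in WT vehicle and 50.5 ± 12.9 in WT bleo, against 3.48 ± 0.528 in Pear1-/- vehicle and 33.2 ± 0.482 in Pear1-/- bleo (SD, n = 3).

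Igf1r, the receptor through which both ligands signal, had 447, 406 and 387 normalized counts in WT vehicle and 222, 189 and 188 in WT bleo. It had 422, 391 and 369 in Pear1-/- vehicle and 225, 222 and 219 in Pear1-/- bleo. The bleo libraries of both genotypes overlapped, as did the vehicle libraries, and no bleo library reached a vehicle library. For Igf1r the log2 fold change was -1.03 in WT (standard error 0.090, edgeR adjusted p = 9.02e-08) and -0.83 under the Pear1-/- label (standard error 0.088, adjusted p = 1.17e-06).

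Igfbp2 was the 1 binding protein gene that rose with bleo. It had 119, 82.2 and 99.6 normalized counts in WT vehicle and 212, 204 and 235 in WT bleo. It had 90.9, 88.1 and 91.7 in Pear1-/- vehicle and 301, 339.5 and 339 in Pear1-/- bleo. The vehicle groups overlapped, both bleo groups lay above them, and Pear1-/- bleo lay above WT bleo without overlap. Its log2 fold change was 1.13 in WT (standard error 0.12, edgeR adjusted p = 8.76e-07) and 1.86 under the Pear1-/- label (standard error 0.12, adjusted p = 2.99e-09). Its neighbour on chromosome 1, Igfbp5, fell in both.

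Igfbp3, which carries most of the IGF in blood, had the largest fall of the members in WT. It had 3137, 3723 and 2972 normalized counts in WT vehicle and 473, 498 and 429 in WT bleo. It had 3843, 3923 and 3823 in Pear1-/- vehicle and 1462, 1435 and 1469 in Pear1-/- bleo. The 4 groups did not overlap at all, in the order Pear1-/- vehicle, WT vehicle, Pear1-/- bleo and WT bleo. The log2 fold change was -2.80 in WT (standard error 0.089, edgeR adjusted p = 7.99e-13), which is 6.97-fold lower, and -1.40 under the Pear1-/- label (standard error 0.083, adjusted p = 1.58e-09), which is 2.65-fold lower.

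Igfbp6, the binding protein with a preference for IGF2, fell under both genotype labels. It had 5298, 6063 and 5196 normalized counts in WT vehicle and 931, 823 and 869 in WT bleo. It had 6216, 5923 and 6485 in Pear1-/- vehicle and 891, 916 and 848 in Pear1-/- bleo. The 6 bleo libraries overlapped between genotypes and lay far below the 6 vehicle libraries. The log2 fold change was -2.65 in WT (standard error 0.080, edgeR adjusted p = 4.99e-13) and -2.81 under the Pear1-/- label (standard error 0.081, adjusted p = 6.37e-13). The fall of Igfbp6 was the largest among the members under the Pear1-/- label. The summed level of 5 adventitial fibroblast markers, which stand for the fibroblasts around vessels and airways, was 10548 to 15317 in WT vehicle and 5108 to 5211 in WT bleo, against 15099 to 16133 in Pear1-/- vehicle and 4602 to 4745 in Pear1-/- bleo. The sum over 5 alveolar fibroblast markers was 31114 to 46490 in the vehicle groups and 6245 to 7897 in the bleo groups. Of these lists, 4 adventitial and 5 alveolar markers fell in WT, and 5 adventitial and 3 alveolar markers fell under the Pear1-/- label. Their part in the falls of Igfbp3, Igfbp5, Igfbp6 and the other members was not tested.

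Igfbp5, a matrix-bound binding protein, had 1695, 1985 and 1622 normalized counts in WT vehicle and 859, 821 and 846 in WT bleo. It had 1999.9, 1895 and 1872 in Pear1-/- vehicle and 912, 965 and 967 in Pear1-/- bleo. Both bleo groups lay below both vehicle groups. The log2 fold change was -1.06 in WT (standard error 0.078, edgeR adjusted p = 1.29e-08) and -1.02 under the Pear1-/- label (standard error 0.077, adjusted p = 2.76e-08).

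Igfbp4, an inhibitor of IGF action that the protease PAPP-A cleaves, spread widely in WT vehicle. It had 10356, 15904 and 9677 normalized counts there and 7183, 7043 and 7184 in WT bleo. It had 15649.7, 15309 and 17411 in Pear1-/- vehicle and 10424, 10758 and 10675 in Pear1-/- bleo. WT vehicle replicate 2 lay within the range of Pear1-/- vehicle, and the other WT vehicle libraries lay below every library of Pear1-/- bleo. The log2 fold change was -0.73 in WT (standard error 0.13, edgeR adjusted p = 0.000144) and -0.60 under the Pear1-/- label (standard error 0.13, adjusted p = 0.000963). Without WT vehicle replicate 2 it was -0.41 in WT (edgeR adjusted p = 1.41e-09).

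Igfbp7, a secreted protein of vessel walls and matrix, had the smallest log2 fold changes with all 12 libraries. It had 9921, 10488 and 9551 normalized counts in WT vehicle and 6843, 6764 and 7145 in WT bleo. It had 10140.5, 9997 and 11572 in Pear1-/- vehicle and 9416, 9488 and 9581 in Pear1-/- bleo. WT bleo lay below every other library, whereas Pear1-/- bleo overlapped with WT vehicle. For Igfbp7 the fall in WT was -0.52 on the log2 scale (standard error 0.064, edgeR adjusted p = 4.58e-06). Without WT vehicle replicate 2 that fall was -0.42 (edgeR adjusted p = 2.66e-09), beside -0.41 for Igfbp4. Under the Pear1-/- label the difference was -0.15 (standard error 0.064, edgeR adjusted p = 0.0527), a call that 5 of 18 alternative fits made, among them the fit without WT vehicle replicate 2 (edgeR adjusted p = 0.00167).

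Both bleo effects were set against each other as the difference of the log2 fold changes, labelled Pear1-/- minus WT. This difference was above 0 and called for 4 members (Igf1, Igfbp2, Igfbp3 and Igfbp7) and called below 0 for 0, beside 17.9% and 19.1% of tested genes. It was 1.40 for Igfbp3 (standard error 0.12, edgeR adjusted p = 5.46e-07) and 0.73 for Igfbp2 (standard error 0.17, adjusted p = 0.00378), and both were called in all 17 alternative fits. It was 0.37 for Igfbp7 (standard error 0.091, edgeR adjusted p = 0.00542) and 0.31 for Igf1 (standard error 0.11, adjusted p = 0.0409). The call was lost in 8 of 17 alternative fits for Igfbp7 and in 12 of 17 for Igf1. For Igf1 it was lost without any one library other than WT vehicle replicates 1 and 2, with edgeR adjusted p-values from 0.0709 to 0.243. The smallest difference for Igf1, without Pear1-/- vehicle replicate 3, was 0.17 (edgeR adjusted p = 0.232). Only 2 members were called without any one of Pear1-/- vehicle replicates 1 and 2, WT bleo replicates 1 and 2 and Pear1-/- bleo replicates 1, 2 and 3. The same fits called 26.1% to 27.2% of all tested genes on this difference, beside 37% with all 12 libraries.

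The remaining 5 members gave no call on this difference, with 0.55 ± 0.31 for Igf2, 0.21 ± 0.13 for Igf1r, 0.14 ± 0.18 for Igfbp4, 0.04 ± 0.11 for Igfbp5 and -0.16 ± 0.11 for Igfbp6 on the log2 scale (± standard error). These values moved with 1 library. Without WT vehicle replicate 2 the difference was 0.15 for Igf2 (edgeR adjusted p = 0.663) and 0.14 for Igf1r (adjusted p = 0.424). It was -0.20 for Igfbp4 (edgeR adjusted p = 0.0124) and -0.32 for Igfbp6 (edgeR adjusted p = 0.0011), so that 6 members were then called, 4 above 0 and 2 below, beside 20.4% and 26% of the genes then tested.

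**Figure D2:**
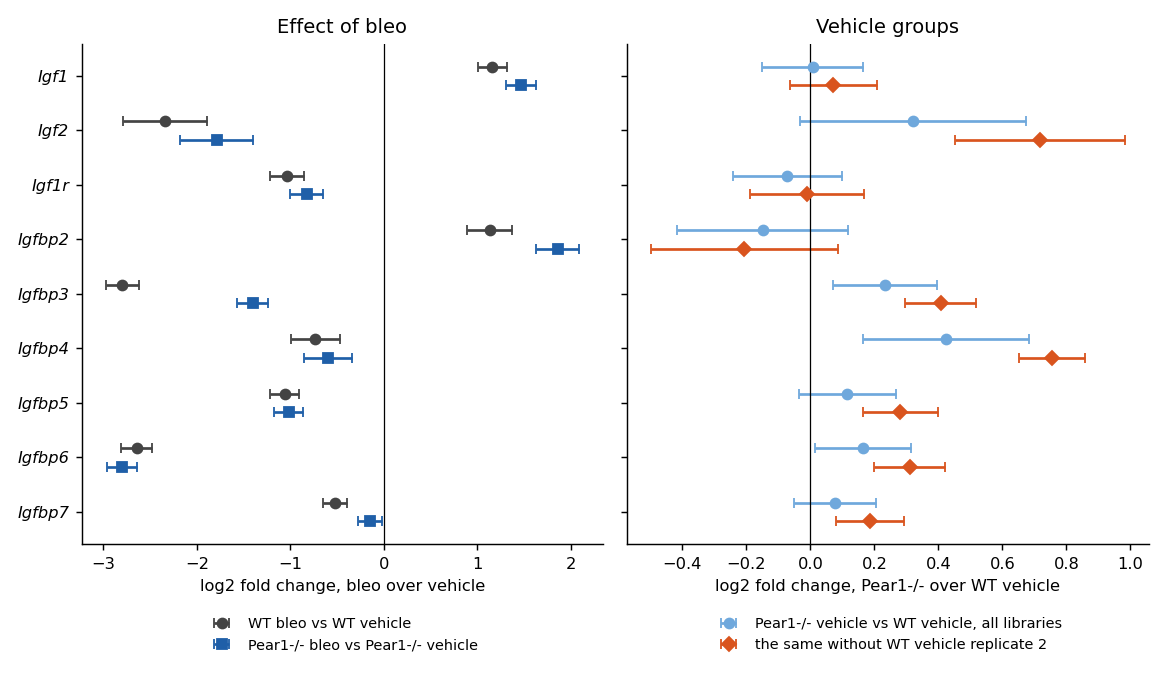
Log2 fold changes (x axis) of the 9 members (y axis) with bars of 2 standard errors on each side. The left panel gives bleo over vehicle in WT and under the Pear1-/- label, where Igfbp3 is at -2.80 and -1.40. The right panel gives Pear1-/- vehicle over WT vehicle with all libraries and without WT vehicle replicate 2, where Igfbp4 is at 0.42 and 0.76.

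The bleo groups were then compared directly. In Pear1-/- bleo 6 members were higher than in WT bleo and 0 were lower, where 22.1% of tested genes were called higher and 23.9% lower. The median log2 fold change was 0.44 for the members and -0.01 for all tested genes. Both ligands and 4 binding protein genes were among the 6, with the per-library values given above. This comparison shares its libraries with both bleo comparisons, so its values are the same libraries seen another way.

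Igfbp3 differed most, at 1455 ± 18.2 normalized counts in Pear1-/- bleo beside 467 ± 34.6 in WT bleo (SD, n = 3), or 1.63 on the log2 scale (standard error 0.086, edgeR adjusted p = 1.28e-09). Igf2, at 55.1 ± 0.904 beside 30.0 ± 6.39, differed by 0.87 (standard error 0.25, edgeR adjusted p = 0.0098), and this call was lost without WT bleo replicate 1 (0.69, adjusted p = 0.0802). Igfbp2 differed by 0.58 (standard error 0.10, edgeR adjusted p = 0.00034) and Igfbp4 by 0.56 (standard error 0.13, adjusted p = 0.00244). Igfbp7 differed by 0.44 (standard error 0.064, edgeR adjusted p = 4.46e-05) and Igf1 by 0.31 (standard error 0.077, adjusted p = 0.0038). Pdgfra was higher by 0.80 in the same comparison (standard error 0.067, edgeR adjusted p = 1.47e-07) and Ptprc was lower, at -1.19 (standard error 0.087, adjusted p = 3.71e-08).

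The receptor and 2 binding protein genes were not called. Igf1r differed by 0.14 (edgeR adjusted p = 0.245), with an interval of -0.05 to 0.32 at 2 standard errors. Igfbp6 differed by 0.00 (edgeR adjusted p = 0.977), with an interval of -0.15 to 0.16. Igfbp5 differed by 0.16 (edgeR adjusted p = 0.109) with groups that did not overlap, at 821 to 859 in WT bleo and 912 to 967 in Pear1-/- bleo. It was called with the 6 bleo libraries alone (edgeR adjusted p = 0.00129) and without WT vehicle replicate 2 (edgeR adjusted p = 0.0265).

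Without bleo, 0 of the 9 members were called between the groups as labelled, where 0.855% of tested genes were called higher and 3.65% lower in Pear1-/- vehicle. By edgeR 3 members had an unadjusted p under 0.05, which were Igfbp4, Igfbp3 and Igfbp6, and DESeq2's Wald test and limma called 0. The log2 fold changes ran from -0.15 for Igfbp2 to 0.42 for Igfbp4 (edgeR adjusted p = 0.061).

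This result rested on WT vehicle replicate 2, which lay nearer to the mean of Pear1-/- vehicle than to the mean of the other WT vehicle libraries for every member other than Igf1 and Igf1r, whose normalized counts lay about as far from both means. For Igfbp4 it had 15904 normalized counts, where the other WT vehicle libraries averaged 10016 and Pear1-/- vehicle averaged 16123. Without it 6 members were called higher and 0 lower in Pear1-/- vehicle, beside 25.5% and 29.7% of the 20405 genes then tested. These were Igfbp4 with a log2 fold change of 0.76 (edgeR adjusted p = 2.61e-16), Igf2 with 0.72 (adjusted p = 1.77e-05), Igfbp3 with 0.41 (adjusted p = 6.84e-08), Igfbp6 with 0.31 (adjusted p = 1.01e-05), Igfbp5 with 0.28 (adjusted p = 9.67e-05) and Igfbp7 with 0.19 (adjusted p = 0.00289). Marker sums moved with this library too. Its leukocyte sum was 36796, beside 25118 and 24548 in the other WT vehicle libraries, its epithelial sum was 55866, beside 39898 and 38262, and its sum over 5 adventitial fibroblast markers was 15317, beside 10590 and 10548. Its sum over 5 alveolar fibroblast markers went the other way, at 33009 beside 46490 and 43476. Their part in the result was not tested.

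The makeup of the binding protein transcripts per kb of exon was set by 3 genes. Igfbp7, Igfbp6 and Igfbp4 made up 47.8% ± 2.47, 28.7% ± 0.443 and 15.5% ± 2.78 of the sum over the 6 genes in WT vehicle (SD, n = 3). The share of Igfbp6 was 28.5% ± 0.677 in Pear1-/- vehicle, 6.72% ± 0.276 in Pear1-/- bleo and 9.22% ± 0.520 in WT bleo. The share of Igfbp7 was 44.6% ± 0.993, 66.3% ± 0.321 and 67.1% ± 0.711 in the same order. The share of Igfbp4 was 18.6% ± 0.172, 20.3% ± 0.165 and 18.9% ± 0.261. Igfbp3 made up 6.03% ± 0.123 in WT vehicle and 1.75% ± 0.169 in WT bleo, against 6.32% ± 0.445 in Pear1-/- vehicle and 3.92% ± 0.0684 in Pear1-/- bleo. Igfbp5 and Igfbp2 each stayed under 2% in every group.

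The sum itself was 16038 to 19293 normalized counts per kb in WT vehicle and 8336 to 8723 in WT bleo, against 18679 to 20929 in Pear1-/- vehicle and 11732 to 11919 in Pear1-/- bleo. The bleo groups did not overlap with each other or with the vehicle groups, which overlapped. That overlap came from WT vehicle replicate 2, at 19293, since the other WT vehicle libraries, at 16665 and 16038, lay below all 3 of Pear1-/- vehicle. The level of Igf1 as a percent of this sum was 0.669 ± 0.0810 in WT vehicle and 2.996 ± 0.164 in WT bleo, against 0.597 ± 0.0969 in Pear1-/- vehicle and 2.70 ± 0.0638 in Pear1-/- bleo (SD, n = 3). These are ratios of transcript levels and say nothing of protein.

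**Figure D3:**
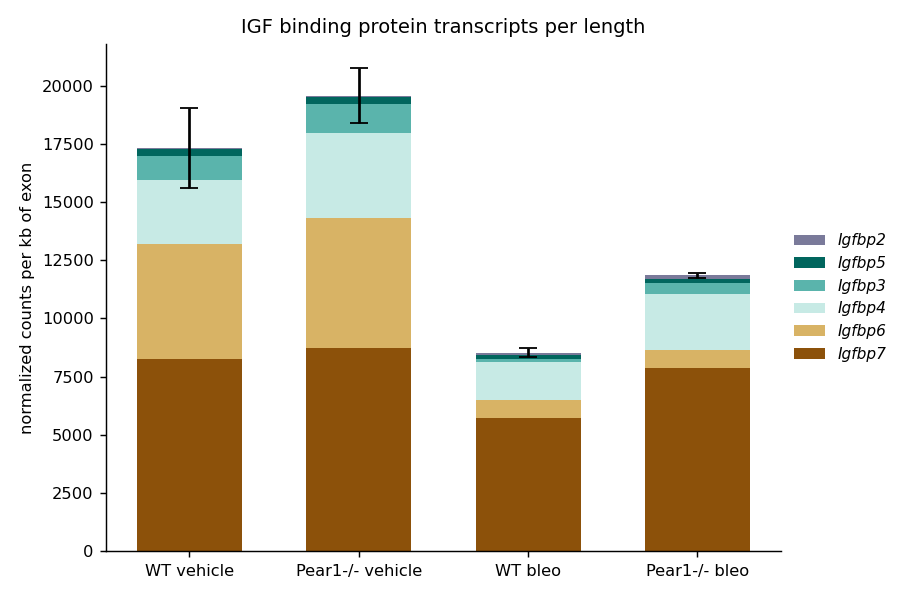
Stacked bars of the mean normalized counts per kb of exon (y axis, starting at 0) of the 6 binding protein genes in each group (x axis), with the SD of the sum over 3 libraries as black bars. The Igfbp6 segment makes up 28.7% of the bar in WT vehicle and 9.22% in WT bleo, and the Igfbp7 segment is the largest in every group.

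The shapes of the 9 profiles were compared by the root mean square difference between log2 CPM values, each gene centred on its mean over the 12 libraries. Among the members, Igf1r and Igfbp5 were the closest pair at 0.13, followed by Igf1 and Igfbp2 at 0.20. Igf2 was closer to Igfbp3, at 0.34, than to any other member. Over the 10454 genes whose log2 CPM averaged 3 or more, the genes most like Igf1 were Rgs16, Hmgn2 and Hmga1, at 0.09, 0.09 and 0.10. Those most like Igfbp2 were Racgap1, Mad2l1 and Cd276, at 0.15, 0.15 and 0.17. For Igf2 they were Chrd, Enpp2 and G0s2, at 0.16, 0.19 and 0.20, and for Igf1r they were Igsf10, Maml2 and Runx1t1, at 0.09, 0.10 and 0.10.

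Igfbp6 was most like Gstm1, Clec3b and Hhip, at 0.12 each, although its own values varied by 1.36. Igfbp3 was most like Igkv1-117, Thsd7a and Slc10a6, at 0.17, 0.18 and 0.18, with its own values varying by 1.20. For Igfbp5 the nearest were Cpq, Dgat1 and Sun1, at 0.06, 0.09 and 0.09. For Igfbp4 they were Isg20, Edem2 and Gem, at 0.07, 0.07 and 0.08, and for Igfbp7 Hdac7, Telo2 and Tmem43, at 0.05, 0.06 and 0.06. These distances describe the 12 libraries, which share 4 group means.

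The rest of the pathway was followed in 39 other genes, of which 35 passed the filter. Among 14 genes for IGF release, clearance, carriage and IGF2 RNA, 10 were tested, and 0 were higher and 8 lower in WT bleo than in WT vehicle. Under the Pear1-/- label 4 were higher and 3 lower. In Pear1-/- bleo 6 were higher and 1 was lower than in WT bleo. The backgrounds are those given above for each comparison.

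Pappa, which encodes the protease PAPP-A that frees IGF from IGFBP4, had 100.02 ± 21.6 normalized counts in WT vehicle, 54.4 ± 8.12 in WT bleo, 80.3 ± 11.1 in Pear1-/- vehicle and 145 ± 13.4 in Pear1-/- bleo (SD, n = 3). On the log2 scale it moved with bleo by -0.85 in WT (edgeR adjusted p = 0.000758) and 0.86 under the Pear1-/- label (edgeR adjusted p = 0.000343), with a difference of 1.72 between the effects (adjusted p = 7.96e-05). Stc2, a secreted inhibitor of PAPP-A, fell by -1.02 in WT (edgeR adjusted p = 0.000108) and differed by 0.01 under the Pear1-/- label (adjusted p = 0.941). Pappa2, a related protease that acts on IGFBP3 and IGFBP5, fell in both, by -0.86 in WT (edgeR adjusted p = 0.000893) and by -1.61 under the Pear1-/- label (adjusted p = 7.07e-06).

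Adam12, a metalloprotease that also cleaves binding proteins, had 44.4 ± 19.1 normalized counts in WT vehicle, 54.4 ± 3.83 in WT bleo, 17.3 ± 0.851 in Pear1-/- vehicle and 230.2 ± 14.7 in Pear1-/- bleo (SD, n = 3). With bleo it differed by 0.33 on the log2 scale in WT (edgeR adjusted p = 0.241) and rose by 3.72 under the Pear1-/- label (adjusted p = 3.56e-09). Its value in WT was 0.05 without WT vehicle replicate 2 (edgeR adjusted p = 0.82). H19, an imprinted non-coding RNA next to Igf2, had at most 7.64 normalized counts in any library of the other groups and 48.6 to 51.6 in Pear1-/- bleo. It was 3.63 higher on the log2 scale in Pear1-/- bleo than in WT bleo (standard error 0.45, edgeR adjusted p = 9.09e-06). With bleo in WT it differed by -0.16 (edgeR adjusted p = 0.827), and by 0.22 without WT vehicle replicate 2 (edgeR adjusted p = 0.794). Igf2bp2, which encodes a protein that binds IGF2 RNA, rose by 1.49 with bleo under the Pear1-/- label (edgeR adjusted p = 3.07e-05) and fell by -0.63 in WT (adjusted p = 0.0281), the latter call being lost in 5 of 18 alternative fits.

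Htra1, a secreted protease, fell 2.84-fold in WT (edgeR adjusted p = 3.41e-08) and 1.87-fold under the Pear1-/- label (adjusted p = 8.78e-06). Stc1, related to Stc2, fell in both as well, by -0.67 and -0.90 (edgeR adjusted p = 0.000715 and 3.23e-05). Igf2r, which clears IGF2 from the cell surface, fell by -0.51 in WT (edgeR adjusted p = 0.0015), and so did Igf2bp3, by -0.83 (adjusted p = 0.00798). Under the Pear1-/- label these differed by 0.10 and -0.53 (edgeR adjusted p = 0.474 and 0.0912).

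Of 25 genes of signalling below the receptor, all tested, 9 were higher and 3 lower in WT bleo than in WT vehicle, beside 31.4% and 36.6% of all tested genes. Under the Pear1-/- label 7 were higher and 4 lower, beside 28.9% and 33.4%. Between the bleo groups 6 were higher and 11 lower in Pear1-/- bleo, beside 22.1% and 23.9%. In the vehicle comparison 2 of these 25 were called higher and 1 lower, and of the other list 0 and 1. Of all tested genes 0.855% were called higher and 3.65% lower there. In each of 11 fits that left out a library other than WT vehicle replicate 2, all 4 calls were lost. These 11 fits called 0% of all tested genes in this comparison. When WT vehicle replicate 2 was left out, 23 of the 36 listed genes then tested were called. Of all genes then tested 25.5% were called higher and 29.7% lower.

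Grb10, an adaptor that restrains the IGF1 and insulin receptors, had 873 ± 33.6 normalized counts in WT vehicle, 709.9 in WT bleo (707 to 714), 926 ± 36.2 in Pear1-/- vehicle and 2614 ± 27.5 in Pear1-/- bleo (SD, n = 3). It rose 2.83-fold with bleo under the Pear1-/- label (edgeR adjusted p = 3.43e-11) and fell 1.22-fold in WT (adjusted p = 0.00105). Grb2, the adaptor to the MAP kinase branch, was highest in WT bleo, at 1145.9 ± 18.6, beside 383 ± 11.5 in Pear1-/- bleo. Grb2 rose by 2.29 in WT (edgeR adjusted p = 2.44e-12) and by 0.64 under the Pear1-/- label (adjusted p = 6.95e-06). Its order of groups was that of the leukocyte marker sum in bleo, and the part of leukocytes in it was not tested.

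Irs1, the docking protein next to the receptor, fell 4.01-fold in WT (edgeR adjusted p = 3.68e-07) and 1.44-fold under the Pear1-/- label (adjusted p = 0.0191). Akt1 rose in both, by 1.27 and 1.45 (edgeR adjusted p = 5.38e-08 and 1.78e-08). Eif4ebp1, a translation repressor controlled by mTOR, rose by 0.72 and 1.08 (edgeR adjusted p = 3.28e-06 and 3.96e-08).

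Foxo1, a transcription factor that AKT keeps out of the nucleus, differed by -0.04 in WT (edgeR adjusted p = 0.769) and fell by -1.38 under the Pear1-/- label (adjusted p = 1.04e-07). Insr, the insulin receptor gene, did likewise, with -0.13 in WT (edgeR adjusted p = 0.209) and -0.88 under the Pear1-/- label (adjusted p = 7.18e-07). Without WT vehicle replicate 2 the value in WT was 0.23 for Foxo1, then called higher (edgeR adjusted p = 0.0134), and 0.02 for Insr (adjusted p = 0.857). Akt2 fell by -0.49 in WT (edgeR adjusted p = 4.33e-05) and differed by 0.08 under the Pear1-/- label (adjusted p = 0.35).

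**Figure D4:**
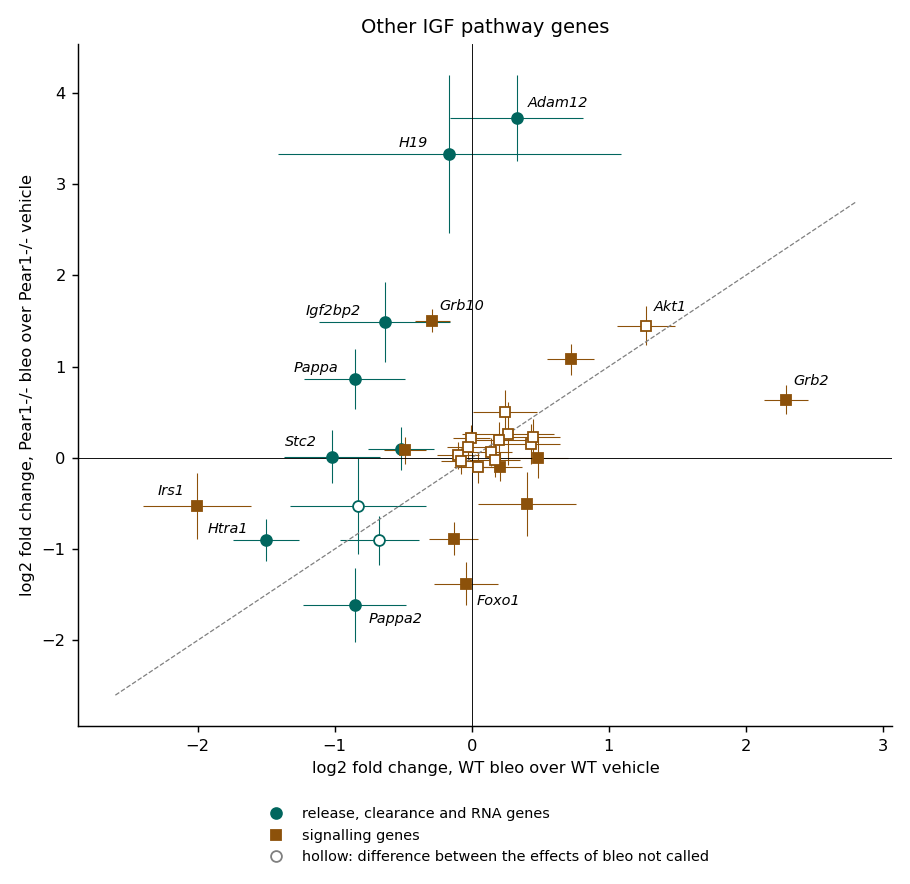
Log2 fold changes of the other pathway genes reported here, bleo over vehicle in WT (x axis) and under the Pear1-/- label (y axis), with bars of 2 standard errors on each side and a dashed line of equal change. Hollow symbols are genes whose bleo effects were not called different. Adam12 and H19 lie near 0 in WT and above 3 under the Pear1-/- label, and Grb2 lies at 2.29 and 0.64.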

How the data were processed

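The authors aligned paired reads to GRCm38 with HISAT2 and deposited raw read counts per gene. They also deposited a normalized signal, which was checked to equal the counts divided by DESeq2 size factors (largest relative difference 1.89e-11). cDNA was full-length (SMART-Seq v4). The counting program and its use of strand are not given in the sources used here. Totals were 6702948 to 10447101 counts per library, and a floor of 3 counts was 0.287 to 0.448 CPM, which covers counting error only.

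Groups came from the deposited labels. Counts were tested with edgeR 4.0.16 (R 4.3.3) by a two-sided quasi-likelihood test with TMM, filterByExpr and 1 mean per group over the 12 libraries. Benjamini-Hochberg adjustment ran over 17418 genes, and 0.05 was the threshold. The procedure was tested on simulated data. Alternatives used DESeq2 1.42.0 and limma 3.58.1 with a pseudocount of 1. Members, gene lists, markers and the naming rule were chosen with earlier results of these data known. Named genes were the members, pathway genes past a fold of 2 in any comparison with up to 3 others per list, and the 3 most alike genes per member, except that some pathway genes are not reported here. Exon lengths are unions of GENCODE vM21 exons, and promoters are from RefSeq.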

Additional observations from a re-analysis of the deposited data

Results flagged for a closer look

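For 4 members the effect of bleo differed between the libraries labelled Pear1-/- and WT by edgeR's interaction test over the 12 libraries, in which 17.9% of tested genes were called above 0 and 19.1% below. The difference in log2 fold change, labelled Pear1-/- minus WT, was 1.40 for Igfbp3 (adjusted p = 5.46e-07), where the fall was -2.80 for WT and -1.40 under the Pear1-/- label. It was 0.73 for Igfbp2 (edgeR adjusted p = 0.00378), which rose by 1.13 and 1.86. It was 0.37 for Igfbp7 (edgeR adjusted p = 0.00542), with -0.52 and -0.15. It was 0.31 for Igf1 (edgeR adjusted p = 0.0409), which rose by 1.16 and 1.47. The calls for Igfbp3 and Igfbp2 held in all 17 alternative fits, whereas the call was lost in 12 of 17 for Igf1 and in 8 of 17 for Igfbp7. Without WT vehicle replicate 2, Igfbp4 (-0.20) and Igfbp6 (-0.32) were also called, both below 0.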

How the results depend on the processing

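Of 801 member values under 18 alternatives, 741 kept their direction and side of the threshold, 21 lost a call, 17 gained one and 22 changed sign, and the cause was not tested. Of the last, only Igfbp4 without WT vehicle replicate 2 (interaction -0.20) was then called. Fits that left out 1 library tested another set of genes, since the filter depends on group size.

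Without a filter on low counts, 3 members and 11 pathway genes were called between the vehicle groups (0 and 4 otherwise, beside 13.8% of all genes), 2 members in the interaction (4 otherwise, beside 16.1%), Igf1r was 0.025 between the vehicle groups and Igfbp5 -0.034 in the interaction. With only the 6 libraries compared, 0 pathway genes and 0% of all genes were called between the vehicle groups and Igf1 was -0.0058. Leaving out 1 library each, members called ranged from 0 to 6 between the vehicle groups and from 2 to 6 in the interaction, and pathway genes called between the vehicle groups from 0 to 23. All genes called ranged from 0% to 55.2% between the vehicle groups, the latter without WT vehicle replicate 2, and from 26.1% to 46.4% in the interaction. Under the same fits, log2 differences between the vehicle groups ranged from -0.015 to 0.13 for Igf1 and from -0.11 to 0.014 for Igf1r. The interaction ranged from -0.20 to 0.27 for Igfbp4 and from -0.13 to 0.10 for Igfbp5, and Igfbp6 between the bleo groups from -0.051 to 0.043.

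Same-numbered libraries did not deviate together (correlations of -0.16 to 0.10 over 18 pairs, 0 over 0.1). Differently numbered libraries had correlations of -0.15 to 0.15. No pairing by number was seen, but deviations within groups of 3 libraries cannot exclude one. With the replicate number as a block, 9, 8, 6 and 0 members were called in the comparisons of WT bleo, Pear1-/- bleo, the bleo groups and the vehicle groups, beside 67.1%, 61.4%, 44.7% and 4.04% of all genes, and 3 in the interaction, beside 35.3%, where Igf1 had an edgeR adjusted p = 0.0565. Igf2, with 25 to 35 counts per WT bleo library, is the member most limited by depth.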
